A study of Homo sapiens with 40 samples.

Results

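The PTPN1 locus was examined in ATAC-seq peak lists, which mark the intervals of the genome that a transposase could enter, from breast cancer cells treated with growth factors. PTPN1 lies on the forward strand of chromosome 20, at chr20:50510321-50585241 in GRCh38 (GENCODE identifier ENSG00000196396.10). The locus was taken as the gene and 150 kb on either side of it, a window of 374.9 kb. It held 61 of the 71600 consensus regions of the series, a consensus region being an interval with overlapping peaks in at least 2 of the 40 lists. Of these 61 regions, 32 lay upstream of the gene, 9 within it and 20 downstream, and 2 further intervals of the window were found in only 1 list and were not used. The locus was chosen by measured values of these data, since a peak upstream of PTPN1 was present after ligand and in few controls, so the values of ligand against control are given below as a description with no test.

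The 40 libraries came from BT474, a human breast cancer cell line with amplified HER2 whose growth trastuzumab, an antibody to HER2, inhibits, and from BT474R, a single clone of BT474 selected for growth in trastuzumab. Cells of both lines were starved of serum before any treatment. They were collected untreated at 0 h (baseline), or 1, 12 and 24 h after vehicle (water, here control), epidermal growth factor (EGF, a ligand of EGFR) or heregulin (HRG, which binds HER3 and HER4). By the study's methods EGF was given at a higher mass concentration than HRG. The kind of ligand and its dose therefore cannot be told apart where EGF is compared with HRG. Each of the 20 groups had 2 libraries, which gave 2 baseline libraries and 6 libraries of each arm per line. Treatments were done in duplicate according to the study's methods, which do not say whether the duplicates were run on separate days or passages. The p-values measure spread between libraries of the same line, pooled over times or conditions in most tests. They do not measure spread between independent lines or clones.

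A library was called open at a region where its list held a peak there, and a region without a peak is one where none was called. The level of a peak is given as its rank percentile, the position of its score among all peaks of the same list, with 100 for the highest score. Sequencing depth is unknown, because peak lists carry no read totals. BT474 lists held 47571 to 56846 peaks and BT474R lists 32479 to 56494, the 6 BT474R lists of 12 h holding 32479 to 45808. Of the 61 regions, 41 to 56 were open in a BT474 library (49.0 ± 4.45, SD, n = 20) and 19 to 41 in a BT474R library (33.1 ± 5.90, SD, n = 20). Promoters of the luminal epithelial genes KRT8, KRT18, KRT19, EPCAM and GATA3 were open in all 40 libraries, and those of the leukocyte gene PTPRC and the endothelial gene PECAM1 in 0. The promoter of ERBB2, the HER2 gene that is amplified in BT474, was open in all 40 as well. The promoter of the fibroblast gene COL1A1 was also open in 40 libraries, at a mean rank percentile of 37.7, and that of the pericyte gene PDGFRB in 12.

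PTPN1 encodes PTP1B, a tyrosine phosphatase held on the endoplasmic reticulum that removes phosphate from receptor tyrosine kinases and their adaptors. It is best known as a brake on insulin and leptin signaling, through the insulin receptor and the kinase JAK2, and it also acts on EGFR and other receptors. Distal regulatory elements open when transcription factors displace nucleosomes, and growth factor signals often reach them through AP-1, a dimer of the FOS and JUN proteins. Downstream of PTPN1 the window held RIPOR3, which lies on the reverse strand, and the start of PARD6B, which encodes a scaffold of the cell polarity complex.

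The regions gained after ligand are shown first, because the values below turn on them. Each sequence is the 201 bp centred on the summit of the highest-ranking peak, read 5′ to 3′ on the forward strand of GRCh38. Capitals mark the AP-1 motif TGACTCA on either strand.
Region 69.5 kb upstream, chr20:50440879-50441079: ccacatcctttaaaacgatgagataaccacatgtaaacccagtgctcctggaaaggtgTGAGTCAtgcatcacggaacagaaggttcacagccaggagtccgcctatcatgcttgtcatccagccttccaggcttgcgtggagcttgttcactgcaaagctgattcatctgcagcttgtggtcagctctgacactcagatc
Region 13.3 kb upstream, chr20:50496968-50497168: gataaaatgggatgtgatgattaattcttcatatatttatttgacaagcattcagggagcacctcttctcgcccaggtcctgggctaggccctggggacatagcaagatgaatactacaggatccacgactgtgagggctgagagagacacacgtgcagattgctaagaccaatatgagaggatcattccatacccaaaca
RIPOR3 intron, 116 kb from the PTPN1 start, chr20:50626100-50626300: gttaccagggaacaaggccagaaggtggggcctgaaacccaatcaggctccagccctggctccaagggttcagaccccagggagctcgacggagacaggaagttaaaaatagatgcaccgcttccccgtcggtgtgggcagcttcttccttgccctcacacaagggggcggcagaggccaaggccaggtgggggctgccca
The region 69.5 kb upstream held 1 AP-1 match, TGAGTCA, centred at -39 bp from the summit. An AP-1 match was found in 15.8% of the 49316 distal regions of the series, in 58.6% of the 1402 regions gained in any of the 4 comparisons of ligand with control, and in 8 of the 52 distal regions of the locus. This region also held 1 match to the GATA motif AGATAA (11.1% of distal regions) and 2 to the RUNX motif TGTGGT (14.7%), of which the first shared 1 base with the GATA match. The region 13.3 kb upstream held 1 match each to the E-box CACGTG (3.63%), the NFY motif CCAAT (22.7%) and the TEAD motif CATTCC (15.7%). The RIPOR3 intron region held 1 match each to CCAAT and to the KLF/SP motif GGGCGG (7.53%).

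The region 69.5 kb upstream of PTPN1 was the only one of the 61 gained in all 4 comparisons of ligand with control. It spanned 684 bp (chr20:50440523-50441206), lay between genes, and had its summits within 82 bp of each other in the 25 lists that held it. In BT474 it was open in 0 of 2 baseline libraries, 0 of 6 controls, 6 of 6 EGF and 6 of 6 HRG libraries. In BT474R it was open in 0 of 2 baseline libraries, 1 of 6 controls, 6 of 6 EGF and 6 of 6 HRG libraries. The open control was replicate 1 at 1 h, at a rank percentile of 8.31, in the list of BT474R with the most peaks (56494). These counts are what the locus was selected on. The share of open libraries, ligand minus control, was thus 83.3% for either ligand in BT474R, and it was 33.3% for EGF and 16.7% for HRG there when peaks with a score under 400 were left out.

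In EGF-BT474 the rank percentile of this peak in replicates 1 and 2 was 27.0 and 31.8 at 1 h, 33.8 and 43.9 at 12 h, and 65.8 and 55.9 at 24 h. In HRG-BT474 it was 18.4 and 39.2 at 1 h, 48.2 and 52.8 at 12 h, and 63.9 and 57.5 at 24 h. Both BT474 arms were therefore highest at 24 h, and they overlapped at 1 and 24 h but not at 12 h, when HRG was higher. In EGF-BT474R it was 22.4 and 26.9 at 1 h, 34.2 and 26.2 at 12 h, and 76.7 and 74.3 at 24 h. In HRG-BT474R it was 12.5 and 16.1 at 1 h, 15.7 and 3.38 at 12 h, and 44.6 and 14.2 at 24 h. Both EGF-BT474R libraries exceeded both HRG-BT474R libraries at each of the 3 times, as the plot of rank percentile by time shows.

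**Figure D1:**
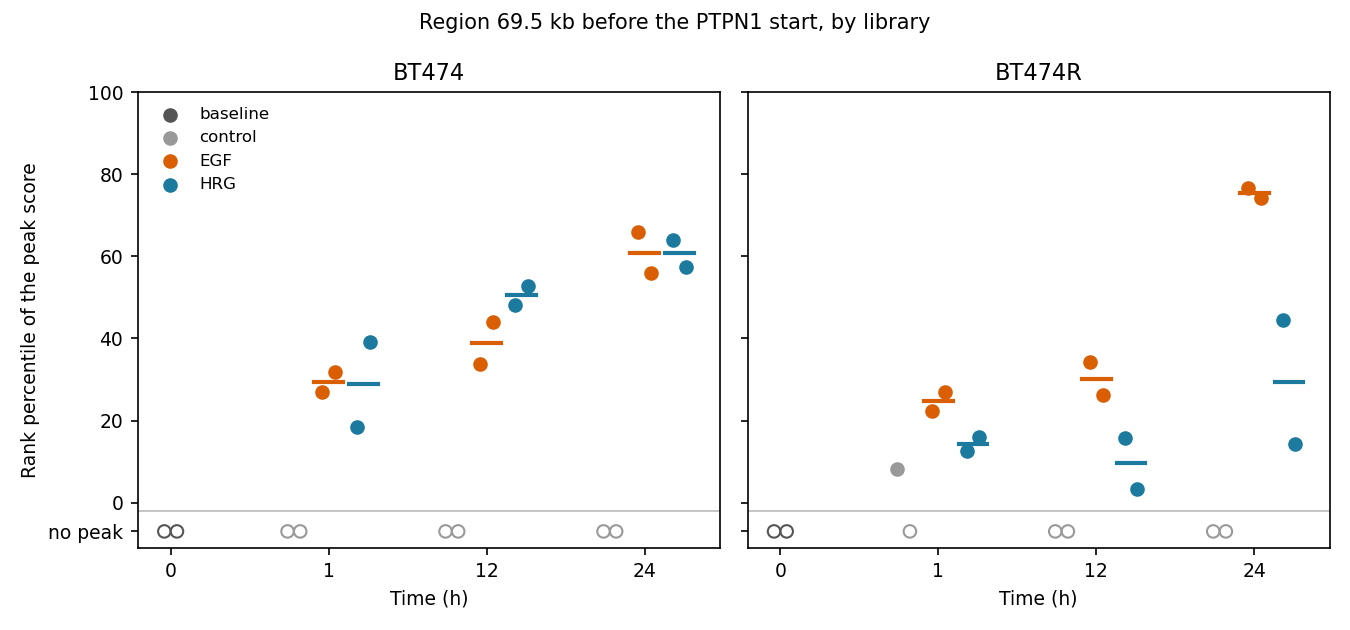
Rank percentile of the peak in the region 69.5 kb upstream of the PTPN1 start (y axis, 0 to 100, with libraries without a peak drawn as empty circles below the line) against time in h, for BT474 on the left and BT474R on the right, with 1 point per library and bars at the mean of the 2 libraries of a group. EGF-BT474R reached 76.7 and 74.3 at 24 h while HRG-BT474R was at 44.6 and 14.2, and in BT474 the 2 ligands overlapped at 1 and 24 h.

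Comparisons among the ligand-treated libraries do not use the controls. At this region 7 were made after its values had been seen, each as a two-sided exact permutation test within strata. They were adjusted over the 7, which does not cover the choice of the region and of the comparisons from values already seen. EGF-BT474R exceeded HRG-BT474R by 25.7 percentile points within time points (exact permutation p = 0.00926, the smallest that 216 arrangements give, adjusted p = 0.0216). In BT474 the difference, EGF minus HRG, was -3.67 points (exact permutation p = 0.426, adjusted p = 0.497). The difference between these 2 differences was 29.4 points (exact permutation of the line within time and ligand, p = 0.0145, adjusted p = 0.0254). That permutation takes the lines as alike under either ligand. Its p-value therefore does not test by itself whether EGF and HRG differed equally in both lines. The ligands also differed more widely in BT474R over the 25166 regions open in all 40 libraries, which do not include this region. By limma at an adjusted p under 0.05, 8.84% of them separated EGF from HRG in BT474R and 0.131% in BT474. Their median EGF minus HRG was -1.85 points in BT474R and 0.903 in BT474. HRG-BT474R was below HRG-BT474, at -28.9 points within time points (exact permutation p = 0.00926, adjusted p = 0.0216), whereas EGF-BT474R minus EGF-BT474 was 0.439 points (exact permutation p = 0.907, adjusted p = 0.907). This mean joined times of opposite sign, with EGF-BT474R at 24.6 against 29.4 in EGF-BT474 at 1 h, 30.2 against 38.8 at 12 h and 75.5 against 60.8 at 24 h. At 24 h both EGF-BT474R libraries were above both EGF-BT474 libraries, and single times were not tested. Over both ligands the BT474R libraries were lower, at -14.2 points (exact permutation p = 0.0188, adjusted p = 0.0263). Libraries of 24 h exceeded those of 1 h by 32.3 points within line and ligand (exact permutation p = 0.00309, adjusted p = 0.0216). The BT474R lists behind these values differed in length, with 38205 and 37476 peaks for EGF at 12 h, 45808 and 42604 for HRG at 12 h, 52126 and 51080 for EGF at 24 h, and 55289 and 44351 for HRG at 24 h. The part of list length in the result was not tested. On the log2 scale of the score itself, which does not use the list length but depends on the depth of its library, EGF exceeded HRG in BT474R by 0.78 (exact permutation p = 0.00926).

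The region 13.3 kb upstream of PTPN1 (chr20:50496866-50497188, 323 bp) was gained in EGF-BT474 and in HRG-BT474. In BT474 it was open in 0 baseline and 0 control libraries and in 5 of 6 libraries of each ligand, the exception being replicate 1 at 1 h in both arms. Its rank percentile was 3.26 to 26.4 in EGF-BT474 and 11.0 to 18.1 in HRG-BT474, so it stood low in every list that held it. In BT474R it was open in 2 of 6 EGF libraries, both of 24 h (24.7 and 26.2), in 1 of 6 HRG libraries (4.50) and in 0 baseline and 0 control libraries.

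The third gained region lay in an intron of RIPOR3, 116 kb from the PTPN1 start (chr20:50625984-50626476), and was gained in EGF-BT474 only. It was open in 5 EGF, 4 HRG, 0 control and also 2 of 2 baseline libraries of BT474. The rank percentiles of the 2 baseline libraries (7.41 and 9.39) lay within the range of the EGF libraries (1.95 to 30.0). In BT474R it was open in 2 baseline, 5 control, 5 EGF and 6 HRG libraries, so there it did not separate ligand from control.

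As a background to these counts, the share of all 71600 regions gained at an unadjusted p under 0.05 by Fisher's exact test, 6 libraries against 6, was 1.15% in EGF-BT474, 1.33% in HRG-BT474, 0.349% in EGF-BT474R and 0.207% in HRG-BT474R. The locus had 3, 2, 1 and 1 such regions of 61, and these shares were used in choosing it. The shares lost were 0.0433%, 0.311%, 0.0391% and 0%, in the same order, and the locus had 0 lost regions in each. Over the series, 18 regions were gained in all 4 comparisons, and 6, the region 69.5 kb upstream included, were open in all 24 ligand libraries and in at most 1 of the 16 others. The 2 ligands were compared with the same controls within each line.

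Ligand libraries also differed from controls in the rank of regions that were open throughout, which is again a description. The largest difference among locus regions open in all libraries of a line was at a region between RIPOR3 and PARD6B, 215 kb from the PTPN1 start (chr20:50724525-50725430). In BT474 its rank percentile was 21.0 to 43.4 in controls (median 24.5), 61.5 to 72.5 with EGF (median 70.4) and 66.7 to 75.7 with HRG (median 70.2), with no overlap. It stood at 72.1 in both EGF-BT474 libraries of 1 h. In BT474R the controls ranged from 11.4 to 43.9 in the 5 open libraries and the EGF libraries from 45.6 to 75.6. The HRG libraries ranged from 32.1 to 73.9 and overlapped the controls when the times were pooled. Within each time both HRG-BT474R libraries exceeded the controls. They stood at 73.9 and 66.8 against 43.9 and 42.2 at 1 h, and at 45.3 and 53.1 against 25.1 and no peak at 12 h. At 24 h they stood at 50.5 and 32.1 against 11.4 and 28.3. Over the 38 locus regions open in all 20 BT474 libraries, the median difference from control was 3.94 points for EGF and 1.64 for HRG, beside 0.878 and -0.199 over the 36820 such regions of the series. Over the 18 in BT474R it was 0.772 for EGF and 1.82 for HRG, beside -0.0668 and 2.32 over 28260 regions.

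**Figure D2:**
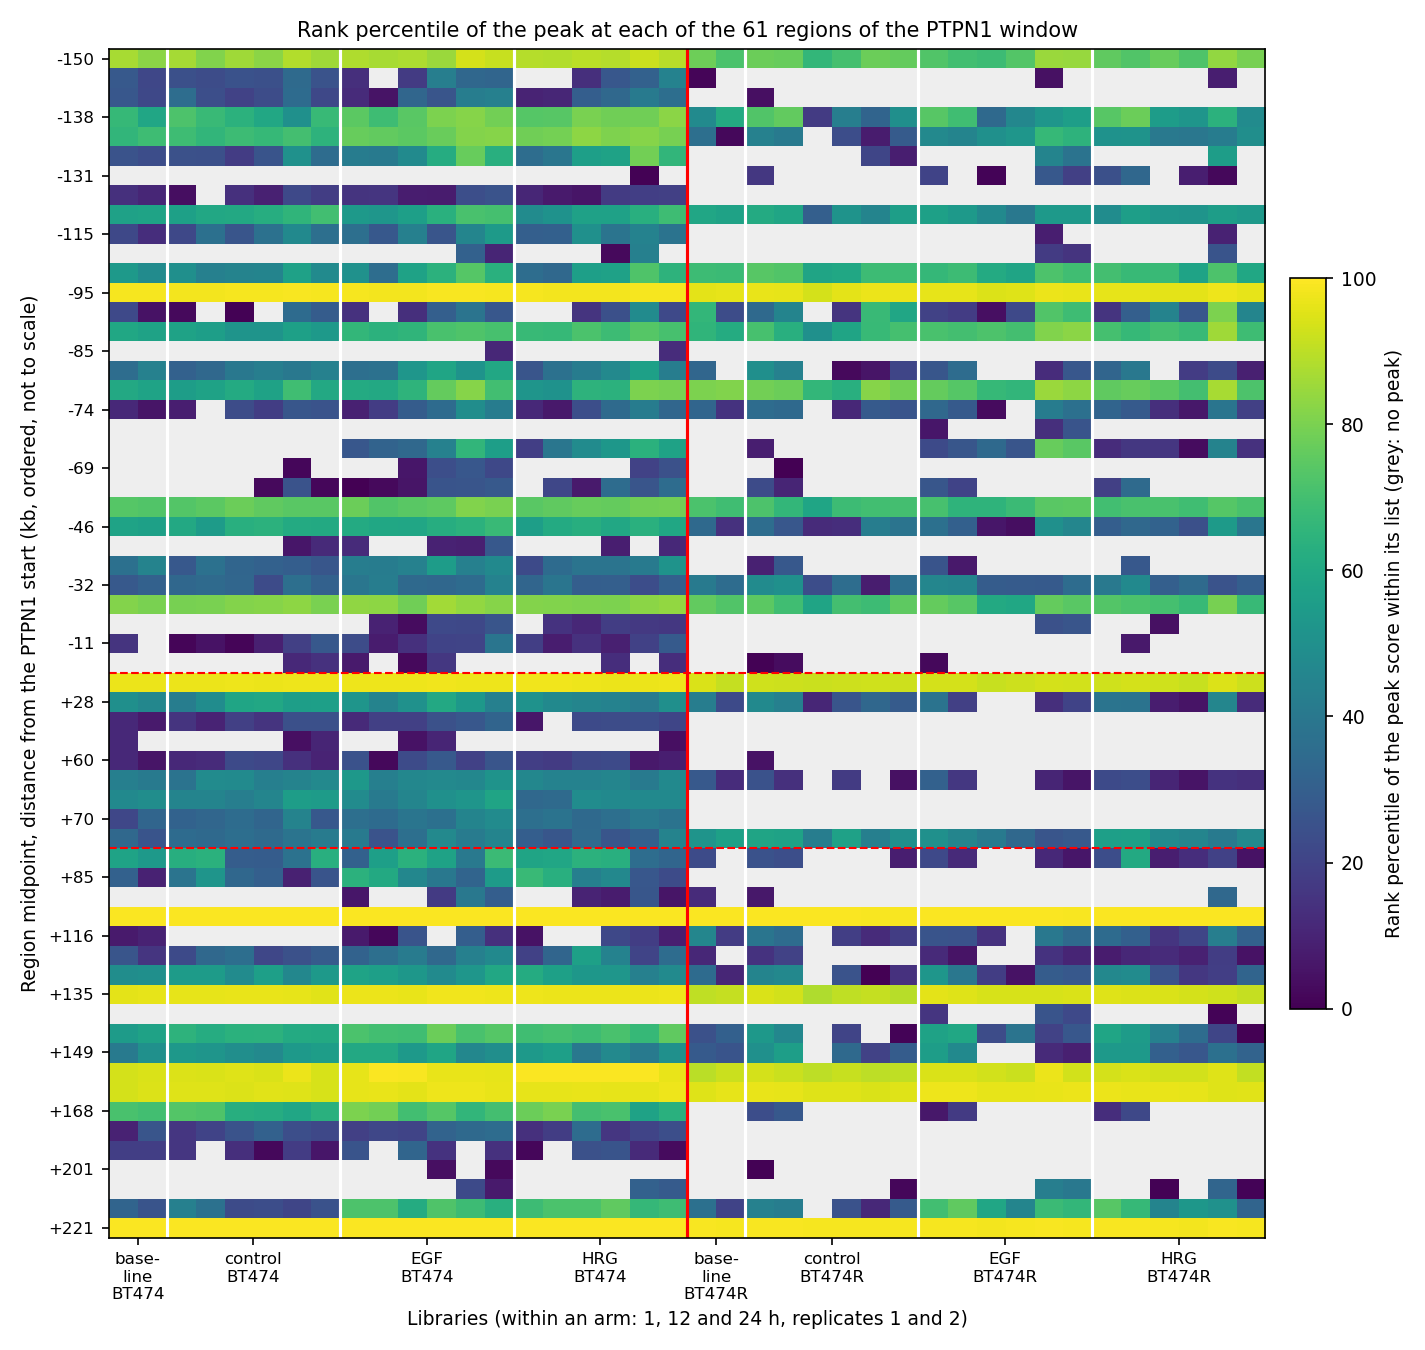
Rank percentile (colour, 0 to 100, grey where no peak was called) of the 61 regions of the PTPN1 window, ordered by the distance of their midpoint from the PTPN1 start in kb (rows), in the 40 libraries grouped by line and arm (columns). The red line separates the lines, the dashed lines bound the 9 regions within PTPN1, and several rows are filled across BT474 and empty across BT474R.

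The promoter of PTPN1 was open in all 40 libraries. Its region (chr20:50509703-50511513, 1811 bp) ranged from 96.9 to 97.8 in the treated and control libraries of BT474 and from 91.6 to 94.7 in those of BT474R, without overlap between the lines. The rank percentile averaged 97.4 ± 0.279 in BT474 and 92.8 ± 0.864 in BT474R (SD, n = 20 each). The BT474R level was lower by limma, at -4.58 points (SE 0.239, Benjamini-Hochberg adjusted p = 1.40e-16). Of all 12980 promoter regions open in every library, 55.3% were lower and 21.9% higher in BT474R by the same test. With the times pooled, the arms overlapped within a line. Medians were 97.2, 97.5 and 97.6 in control, EGF and HRG libraries of BT474 and 92.5, 93.4 and 92.7 in those of BT474R. At 1 h both libraries of each ligand exceeded both controls. The controls were 97.1 and 96.9 in BT474, against 97.5 and 97.6 with EGF and 97.7 in both HRG libraries. In BT474R they were 92.8 and 92.3, against 93.5 and 93.7 with EGF and 92.9 and 93.4 with HRG. At 12 h this did not hold in HRG-BT474 or in BT474R, and at 24 h it held only in EGF-BT474R. Single times were not tested. The 188 bp that end just before the first annotated start are shown because this is the strongest region of the gene, with matches to the KLF/SP motif GGGCGG and the NFY motif CCAAT, on either strand, in capitals.
PTPN1 promoter, RefSeq promoter table, GRCh38.p14, chr20:50510133-50510320, forward strand: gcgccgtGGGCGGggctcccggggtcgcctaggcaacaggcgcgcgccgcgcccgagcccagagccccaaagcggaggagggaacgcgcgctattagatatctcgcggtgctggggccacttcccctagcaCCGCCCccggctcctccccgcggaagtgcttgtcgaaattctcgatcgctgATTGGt
This stretch is 69.7% G and C and held 2 KLF/SP matches and 1 NFY match, which were found in 32.6% and 25.3% of 35116 promoters of the table over the same 188 bp. It held 2 AP-2 matches (GCCNNNGGC, found in 14.7%), each overlapping a KLF/SP match, and no AP-1 match (2.98%).

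Within the gene, 4 of the 9 regions were open in BT474 and nearly absent from BT474R. The region 67.1 kb from the start (chr20:50577150-50577622), in an intron of PTPN1 and at the start of the antisense lncRNA gene ENSG00000232043, was open in 20 of 20 BT474 libraries at 33.9 to 58.4 (47.0 ± 6.12, SD, n = 20) and in 0 of 20 BT474R libraries. The region 69.8 kb from the start (chr20:50579901-50580422), which overlaps the end of an exon, was open in 20 BT474 libraries at 21.4 to 48.4 (36.2 ± 5.99, SD, n = 20) and in 0 of BT474R. Both differed between the lines by Fisher's exact test (adjusted p = 4.18e-10). Weaker intronic regions lay 36.5 kb from the start, open in 19 BT474 and 0 BT474R libraries, and 60.4 kb from it, open in 20 and 1 (Fisher's exact test, adjusted p = 5.78e-09 for each). The sequences around the summits of the stronger pair are given because they mark the gene body in BT474.
Region 67.1 kb into PTPN1, chr20:50577273-50577473: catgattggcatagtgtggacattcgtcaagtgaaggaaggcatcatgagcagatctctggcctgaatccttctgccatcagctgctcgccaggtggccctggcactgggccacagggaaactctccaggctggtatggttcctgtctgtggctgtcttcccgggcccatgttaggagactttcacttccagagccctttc
Region 69.8 kb into PTPN1, chr20:50579992-50580192: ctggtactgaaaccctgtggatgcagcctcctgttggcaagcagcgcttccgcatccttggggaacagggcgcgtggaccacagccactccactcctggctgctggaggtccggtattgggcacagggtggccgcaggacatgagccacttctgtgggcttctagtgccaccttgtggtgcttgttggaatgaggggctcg
Neither held an AP-1 match. The first held 1 match to CCAAT, and the second 1 to CCAAT, 1 to CATTCC and 2 to TGTGGT.

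The other 5 regions of the gene gave no presence call. Besides the promoter, the region 74.1 kb from the start, at the end of the gene (chr20:50584188-50584559), was open in all 40 libraries, and its rank percentile was higher in BT474R (46.9 ± 9.59) than in BT474 (35.5 ± 6.66, SD, n = 20 each) by 11.4 points (limma, SE 2.75, adjusted p = 4.37e-04). The regions 28.3 and 65.7 kb from the start were open in 20 BT474 libraries each and in 18 and 16 BT474R libraries, and the region 45.6 kb from it in 6 and 0. Between the lines, PTPN1 therefore held always-open regions with rank differences of either sign.

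Across the whole window, 17 of the 61 regions (27.9%) were open in fewer BT474R than BT474 libraries and 1 (1.64%) in more (Fisher's exact test, 20 libraries against 20, adjusted p under 0.05). Over all 71600 regions the shares were 18.4% lower and 11.0% higher. The lower regions were 8 of 32 upstream, 4 of 9 within and 5 of 20 downstream of the gene. Open in all 20 BT474 and 0 BT474R libraries were 4 regions of the locus (6.56%), beside 2.52% of all regions. They were the 2 regions of PTPN1 above, a region at an alternative RIPOR3 start 84.6 kb from the PTPN1 start, and a RIPOR3 intron region 170 kb from it (adjusted p = 4.18e-10 for each).

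Of the upstream regions called lower, those 141 and 129 kb from the start were open in 20 and 19 BT474 libraries and in 1 and 0 of BT474R (adjusted p = 5.78e-09 for each). Those 115 and 10.7 kb upstream were open in 20 and 19 BT474 libraries and in 2 and 1 of BT474R (adjusted p = 5.08e-08 and 8.54e-08). The regions 144, 132 and 39.1 kb upstream were open in 17, 20 and 20 BT474 libraries and in 3, 5 and 5 of BT474R (adjusted p = 1.31e-04, 6.91e-06 and 6.91e-06). The region 42.1 kb upstream was open in 8 and 0 libraries (adjusted p = 0.0128). Downstream, regions of RIPOR3 168, 180 and 119 kb from the PTPN1 start were open in 20, 16 and 20 BT474 libraries and in 6, 0 and 13 of BT474R (adjusted p = 2.60e-05, 1.62e-06 and 0.0291).

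The single region called higher in BT474R lay 131 kb upstream (chr20:50379243-50379789), between regions called lower 132 and 129 kb upstream. It was open in 1 BT474 library, an HRG library at a rank percentile of 0.513, and in 9 BT474R libraries at 0.830 to 33.5 (adjusted p = 0.0291). Of these 9, 1 was a control, 4 were EGF and 4 were HRG libraries. With the 8 baseline and control libraries of each line alone it was not called (adjusted p = 1.00), and neither were the regions 42.1 kb upstream (adjusted p = 1.00) and 119 kb from the start (adjusted p = 0.136). Without the 6 BT474R libraries of 12 h, the last of these was not called either (adjusted p = 0.167), and the other 17 were. With peaks of a score of at least 400 alone, only 11 of these 18 regions had a value, of which 9 were called, and those 144 kb upstream and 170 kb from the start were not (adjusted p = 0.478 for each). With equal numbers of top peaks only 10 had a value, of which 8 were called, and those 144 and 141 kb upstream were not (adjusted p = 0.962 and 0.274).

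The other 25 regions were neither called by presence nor open in all 40 libraries, and 9 of them were open in at most 10 libraries. Open in more BT474 than BT474R libraries were 19 of the 25, and 6 were open in more BT474R libraries. Of the 19, 9 were open in all 20 BT474 libraries and in 14 to 19 of BT474R. The ligand-gained region 69.5 kb upstream, on whose counts the locus was selected, was open in 12 BT474 and 13 BT474R libraries. It was not called between the lines (Fisher's exact test, adjusted p = 1.00), but that selection left the test little room to differ. Its neighbour 64.5 kb upstream was open in 3 controls, 6 EGF and 5 HRG libraries of BT474 and in 2 of each of these arms in BT474R. The region 68.7 kb upstream was open in 1 control, 4 EGF and 2 HRG libraries of BT474 and in 1 control of BT474R. The region 111 kb from the start, in a RIPOR3 intron, was open in 4 EGF and 4 HRG libraries and in 0 controls of BT474, 1 short of a gain in each. These 3 regions were open in 0 of 2 baseline libraries of BT474, and none was gained in any comparison. The region 71.1 kb upstream was open only in 3 EGF-BT474R libraries.

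Regions open in all 40 libraries were compared by rank percentile. The locus had 18 of them (29.5% of 61), beside 25166 in the series (35.1%). By limma, 11 of the 18 were lower in BT474R and 4 higher, that is 61.1% and 22.2%, beside 46.9% and 30.0% of all 25166 regions, and their median difference was -3.23 points beside -1.51 over all. The largest was 45.9 kb upstream, with 54.8 to 67.9 in BT474 and 3.52 to 54.6 in BT474R, a difference of -30.6 points (SE 2.65, adjusted p = 1.41e-11). The ranges of the lines did not overlap there. The 3 higher regions upstream lay 97.2, 86.6 and 75.5 kb from the start, with a lower region between the first 2, and had differences of 13.6, 5.56 and 11.4 points (adjusted p = 1.27e-05, 1.70e-04 and 6.85e-06).

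The 3 locus regions with the highest mean rank were a 2540 bp region in an intron of RIPOR3, 114 kb from the PTPN1 start (chr20:50623349-50625888), the promoter of PARD6B (chr20:50730248-50732619) and an intergenic region 94.7 kb upstream (chr20:50414818-50416377). The RIPOR3 intron region stood at 99.5 ± 0.0937 in BT474 and 99.4 ± 0.135 in BT474R, and was not called (adjusted p = 0.631). The PARD6B promoter was at 99.5 ± 0.0616 and 98.8 ± 0.210 (adjusted p = 3.17e-05), and the upstream region at 98.6 ± 0.208 and 96.1 ± 0.838 (adjusted p = 1.73e-11, SD, n = 20 for each). All 3 were thus among the highest peaks of every list, whatever the treatment.

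**Figure D3:**
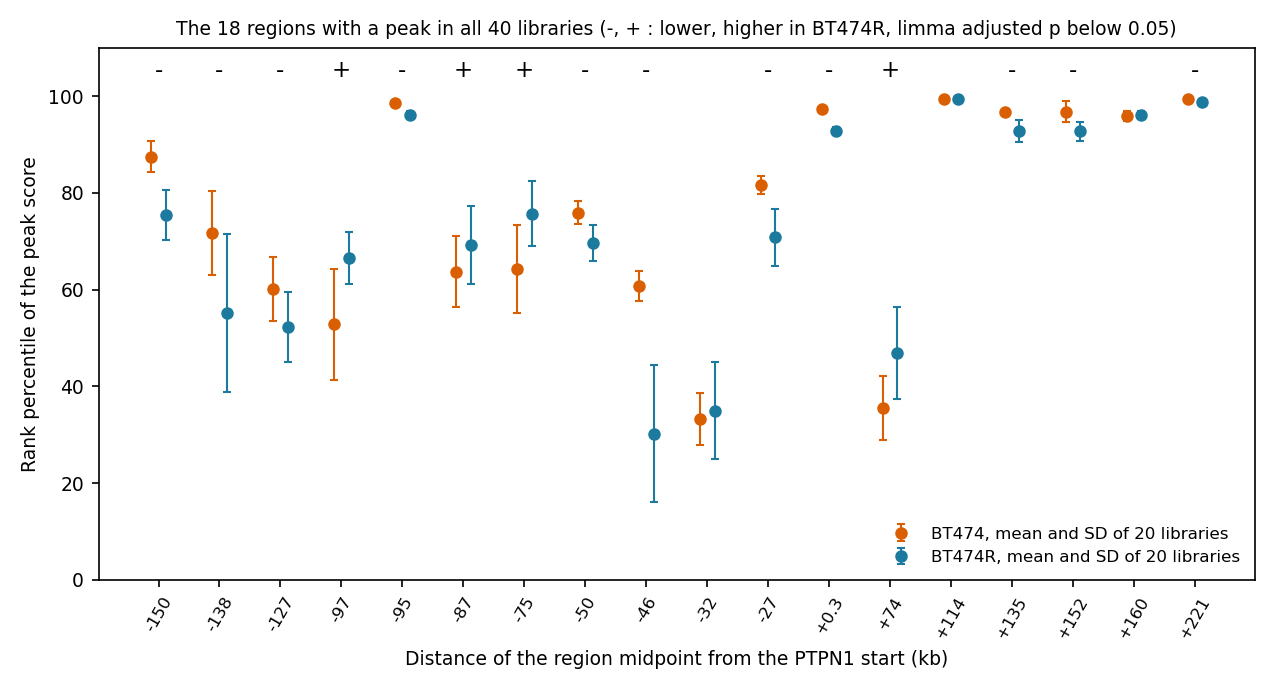
Rank percentile (y axis, mean and SD of 20 libraries per line) of the 18 regions of the window that were open in all 40 libraries, ordered by distance from the PTPN1 start in kb (x axis), with BT474 and BT474R side by side. A minus marks the 11 regions lower and a plus the 4 regions higher in BT474R by limma, and the widest gap is 45.9 kb upstream, at 60.8 in BT474 and 30.2 in BT474R.

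The ligands were compared with each other in the same way. By presence, 0 of the 61 regions separated EGF from HRG in either line at an unadjusted p under 0.05 (Fisher's exact test, 6 libraries against 6), beside 0.0489% of all regions in BT474 and 0.0936% in BT474R. By rank percentile, 0 of 18 passed the adjusted threshold of limma in BT474, beside 0.131% of all 25166 regions, and 2 of 18 (11.1%) had an unadjusted p under 0.05, beside 10.00% of all. In BT474R 1 of 18 passed, beside 8.84% of all regions, and 2 of 18 had an unadjusted p under 0.05, beside 24.4% of all. It was the region at the end of PTPN1, with 50.3, 45.7, 41.3, 33.7, 26.4 and 28.1 in EGF-BT474R and 56.5, 57.0, 47.9, 45.5, 40.9 and 47.2 in HRG-BT474R, each from 1 to 24 h. The controls ranged from 42.3 to 58.5. Both EGF libraries lay below both HRG libraries at every time, by 11.6 points on average (EGF minus HRG -11.6, SE 2.98, adjusted p = 0.0179). This call was lost without any 1 of 4 libraries, namely EGF replicate 2 at 1 h (adjusted p = 0.0665) and at 12 h (0.0568), HRG replicate 2 at 1 h (0.0519) and HRG replicate 1 at 12 h (0.0546). It was also lost when the always-open regions were ranked among themselves (adjusted p = 0.380).

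The other classical tyrosine phosphatases and the substrates and partners of PTP1B were compared between the lines at their promoters, that is at regions within 1 kb of an annotated start. Of 36 phosphatase genes, 26 had such a region. Of their 42 regions, 10 (23.8%) were lower and 2 (4.76%) higher in BT474R by presence, beside 14.1% lower and 5.08% higher over all 22284 promoter regions. The regions with the smallest p were those of the receptor phosphatases PTPRM (open in 20 BT474 and 0 BT474R libraries, adjusted p = 4.18e-10), PTPRE (20 and 3, adjusted p = 3.19e-07), PTPRS (18 and 3, adjusted p = 2.60e-05) and PTPRJ (20 and 8, adjusted p = 2.74e-04). For PTPRM and PTPRS these were not the main promoter regions. The main PTPRM region was open in 20 libraries of each line, at 88.0 in BT474 and 65.1 in BT474R. The main PTPRS region was open in 19 and 12 libraries and was not called. The main promoter region was open in all 40 libraries for 16 genes, of which 9 (56.2%) were lower and 2 (12.5%) higher in rank, beside the 55.3% and 21.9% of all always-open promoter regions. PTPN2, which encodes the phosphatase closest to PTP1B, was among the lower ones, at 94.5 in BT474 and 90.8 in BT474R (limma adjusted p = 4.79e-08), although another of its 3 promoter regions was higher in BT474R by presence.

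Of 21 genes for substrates and partners, 19 had a promoter region, and of their 37 regions 9 (24.3%) were lower and 2 (5.41%) higher in BT474R, beside the same 14.1% and 5.08%. JAK2, the kinase of leptin signaling, had its promoter region open in 20 BT474 and 0 BT474R libraries (adjusted p = 4.18e-10). A promoter region of INSR, the insulin receptor, was open in 20 and 1 (adjusted p = 5.78e-09), 1 of IGF1R, the IGF-1 receptor, in 17 and 0 (adjusted p = 3.19e-07), and 1 of the adaptor IRS1 in 20 and 7 (adjusted p = 8.86e-05). A region of CAV1, which encodes caveolin, was open in 20 and 11 (adjusted p = 0.00535), and a region of ERBB3, the HER3 receptor, in 8 and 20 (adjusted p = 2.74e-04), higher in BT474R. The main ERBB3 region was open in all libraries and lower in rank, at 98.5 in BT474 and 97.4 in BT474R (limma adjusted p = 1.42e-04). The main regions of INSR and CAV1 were also open in all libraries and lower in rank, at 59.7 and 56.2 in BT474 and 45.2 and 30.7 in BT474R. The main IGF1R region was open in 20 and 9 libraries and was called lower, and that of IRS1 in 20 and 16 and was not called. Of the 14 genes whose main region was open in all libraries, 9 (64.3%) were lower and 3 (21.4%) higher in rank, beside 55.3% and 21.9%. The higher ones were IRS2, EGFR and LEPR, the leptin receptor, at 83.0, 96.1 and 97.8 in BT474R against 67.1, 90.0 and 91.9 in BT474.

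The 5 regions of the series whose presence most resembled that of the region 69.5 kb upstream of PTPN1 each had the same state in 39 of the 40 libraries. By their nearest protein-coding start they lay near ANKRD10 (chr13:110965127-110965711), SLC25A21 (chr14:37122276-37122670), CYP11A1 (chr15:74396974-74397341), KTN1 (chr14:55803102-55803412) and ITGA5 (chr12:54423194-54423500), at 50.4, 50.1, 29.5, 244 and 4.08 kb from those starts. The first 4 were open in all 24 ligand libraries, and ITGA5 in 23 of them, namely 12 of BT474 and 11 of BT474R. Their mean absolute difference in rank percentile from the PTPN1 region, with 0 for no peak, was 8.32 to 11.0 points. In all, 35 regions had the same state as it in at least 38 libraries.

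The limits of the window were set by distance alone. The outermost region inside it upstream was open in 20 libraries of each line, and the next one outside (152.4 kb) in 10 BT474 and 0 BT474R libraries. Downstream the PARD6B promoter was the last inside (146.2 kb from the gene end), and the next one outside (156.9 kb) was open in 19 and 0. The window held 16.3 regions per 100 kb, beside 4.41 on chromosome 20 and 2.36 over chromosomes 1 to 22 and X. The copy number of this segment was not measured in either line, and its part in the density and in the differences between the lines was not tested.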

How the data were processed

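Accessibility was measured by ATAC-seq in 40 libraries of BT474 and BT474R, grouped by the sample labels. Per the labels and the study's methods, the authors trimmed reads with Trim Galore 0.6.6, mapped them to GRCh38 with BBMap and called peaks in each library with Genrich, without mitochondrial reads and blacklisted intervals. Sources used here do not give the Genrich options. The deposited score sums the significance along a peak, and its lowest value was 200. It depends on the depth of its own library and was used mainly within a list, as a rank percentile. On a log scale the score was also compared between libraries, in permutation tests at the region gained in all comparisons with control. A common minimum score for all lists served as an alternative setting. The deposited −log10 p and −log10 q values served only for an alternative ranking. Read counts were not analysed here, so the study's count model on reads was not repeated.

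Peaks on chromosomes 1 to 22 and X were merged at an overlap of 1 bp, regions in at least 2 lists were kept, and genes were taken from GENCODE release 44. Peaks beyond a chromosome end numbered 0, as did identical pairs of lists. Presence was compared by Fisher's exact test (adjusted over all regions for the lines, unadjusted for arms) and rank percentile by limma (conditions and line, or group means). Members, gene lists and tests were chosen with earlier results of these data known. The text names PTPN1, its promoter, gained and called regions, the 3 of highest rank, those at the limits, the 5 most like the leading region, and up to 6 genes per list. The region between RIPOR3 and PARD6B and the 7 permutation tests were added after values were seen. Alternatives were a score of at least 400, 32479 top peaks per list, 50% coverage, regions in at least 1 or 4 lists, logit, re-ranked and −log10 q scales, baseline and control alone, a replicate block, each library left out, flanks of 100 and 250 kb, and peaks trimmed to 400 bp. Python 3.11.15, scipy 1.17.1, pysam 0.24.0, samtools 1.23.1, R 4.3.3 and limma 3.58.1 were used.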

Additional observations from a re-analysis of the deposited data

Results flagged for a closer look

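At the region 69.5 kb upstream of PTPN1, 1 of the 6 HRG-BT474R libraries stood apart. Replicate 1 at 24 h had a rank percentile of 44.6, while the other 5 ranged from 3.38 to 16.1, and the gap was 0.691 of the range. Its duplicate at 24 h was at 14.2. Of 29 groups tested in this way, 1 was marked. Chance marks about 1 in 20 where the libraries of a group are alike, whereas this group joined 1, 12 and 24 h. Without HRG replicate 1 at 24 h, EGF-BT474R still exceeded HRG-BT474R at this region. The same held in each of the 12 repeats that left out 1 of the libraries compared, with differences of 20.6 to 30.8 points (exact permutation p from 0.00926 to 0.0185). The comparison was chosen after its values were seen. These repeats reuse the same libraries, so they do not test it anew.

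At the same region the value of EGF minus HRG was higher in BT474R than in BT474. EGF minus HRG in BT474R less EGF minus HRG in BT474 was 29.4 points (two-sided exact permutation of the line within time and ligand, p = 0.0145), and it was 24.3 to 34.4 when each ligand library was left out in turn (p from 0.00742 to 0.0317). On the log2 scale of the score it was 0.93 (exact permutation p = 0.0225). These permutations take the lines as alike under either ligand. Their p-values therefore do not test by themselves whether EGF and HRG differed equally in both lines. This comparison, too, was chosen after its values were seen, and its repeats reuse the same libraries.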

How the results depend on the processing

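At the region 69.5 kb upstream the share of open libraries, ligand minus control, was 100% for EGF-BT474 and HRG-BT474 and 83.3% for EGF-BT474R and HRG-BT474R. In this order it was 66.7, 83.3, 33.3 and 16.7% with scores of at least 400, and 50, 66.7, 50 and 16.7% with 50% of the region covered. With equal numbers of top peaks it was 50, 83.3 and 16.7% for EGF-BT474, HRG-BT474 and HRG-BT474R, and the value of EGF-BT474R is not listed here. The share kept its sign in each. Leaving out each library gave 100% in BT474 and 80 to 100% in BT474R for either ligand.

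The number of locus regions lower in BT474R by presence (17) was 11 with a flank of 100 kb and 26 with 250 kb, and 17 to 20 without each library. The number higher (1) was 0 with scores of at least 400, 50% coverage, a 100 kb flank, or baseline and control alone. It was 2 with equal numbers of top peaks and, in an alternative chosen after seeing the data, without the BT474R libraries of 12 h, and 1 to 2 without each library. By rank, the number lower (11) was 6 with 50% coverage, 7 and 19 with flanks of 100 and 250 kb, and 11 to 14 without each library. The number higher (4) was 2 with scores of at least 400 or 50% coverage, 8 with a 250 kb flank, and 4 without each library. The number of regions separating EGF from HRG in BT474R by rank (1) was 0 with scores of at least 400, equal numbers of top peaks or re-ranking, 2 with the logit, −log10 q or a 250 kb flank, and 0 to 2 without each library. For EGF against HRG, the presence counts in both lines and the rank count in BT474 were 0 without each library. The PTPN1 promoter difference between the lines was -4.70 to -4.49 points without each library, and could not be fitted with 50% coverage, under which the promoter was not open in all libraries. Wider or narrower flanks hold more or fewer regions, and for the other settings the cause was not tested.

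The sources do not say whether replicate numbers pair the samples, and the main tests did not pair them. Over always-open regions, replicate differences of the 2 lines correlated at -0.0293 to 0.292 in the 10 conditions, 1 of them over 0.1. Those of EGF and HRG within a line correlated at -0.204 to 0.284 in 6 pairs, 1 of them over 0.1. With a replicate block 16 regions were lower and 1 higher by presence, and 11 lower and 4 higher by rank. The region 119 kb from the start was no longer called (adjusted p = 0.0532). The promoter difference was -4.58. Peak lists limit presence to regions past the caller's threshold.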
